A study of Mus musculus with 10 samples.

Results

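The peaks described here lie at genes of the microtubule system in mouse brain and lung: kinesins, kinesin light chains, cytoplasmic dynein, dynactin, alpha- and beta-tubulins, EMAP-like (Eml) proteins, the microtubule-associated proteins Map1a, Map1b, Map2, Map4, Map6 and Mapt, stathmins, Dcx and Dclk1. They were chosen by gene name, as accessibility peaks that overlapped such a protein-coding gene or lay within 5000 bp of it, with the nearest gene end deciding between neighbouring genes. This gave 163 of the 37513 peaks in the table, at 75 of the 89 genes that match the names. No peak was assigned to Dctn2, Dcx, Kif19a, Kif26b, Kif28, Kif2b, Kif4, Klc4, Map1b, Stmn3, Tuba3a, Tuba4a, Tubal3 or Tubb1. Of the 163 peaks, 92 had their centre within 1000 bp of a gene end (gene-end peaks), 64 others overlapped the gene (intragenic peaks) and 7 lay beside it (flanking peaks). All 163 had at least 10 reads over the 10 libraries and were tested. At 34 of them another protein-coding gene was also in reach.

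Open chromatin was profiled by ATAC-seq, in which the transposase Tn5 cuts accessible DNA and inserts sequencing adapters there. All libraries came from fresh frozen sections of wild-type C57BL/6J mice, tagmented on the slide, from which randomly chosen nuclei were cut with a laser. The sources used here state neither the age, sex or number of the mice nor the regions of brain and lung. The groups were brain at 200 nuclei (n = 2 libraries), brain at 50 nuclei (n = 2), lung at 200 nuclei (n = 3) and lung at 50 nuclei (n = 3); the larger bulks were taken as 10 areas of about 20 nuclei and the smaller ones as single nuclei, so number and mode of capture cannot be told apart. The labels speak of technical duplicates at the least and do not say whether replicates came from different mice, so the p-values measure the spread between these libraries, which may be technical.

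Microtubules are polymers of alpha- and beta-tubulin pairs along which motors carry cargo. Kinesins mostly walk towards the growing plus end and cytoplasmic dynein, with its activator dynactin, towards the minus end. In neurons these motors supply axons and dendrites, structural MAPs such as tau and Map2 bind the microtubule lattice, stathmins sequester tubulin, and certain beta-tubulins, above all Tubb3, are known as neuronal forms. In most other cells the same system serves intracellular transport, cilia and the mitotic spindle.

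Start windows of 9 genes are printed here because they lie under the peaks on which the results turn: the neuronal beta-tubulins, a beta-tubulin and an alpha-tubulin that contrast with them, and 5 other genes whose window overlaps a peak called higher in brain. Each window holds 250 bases before and 50 bases from the annotated start in RefSeq GRCm38.p6 (the assembly of mm10), read 5′ to 3′ along the gene. Capitals mark matches, on either strand, to any of 5 short motifs: the GC box GGGCGG, the CCAAT box CCAAT, the cAMP response element TGACGTCA, the NRF1 core GCGCATGC and the left part of repressor element 1, TTCAGCACC. The first 4 are tubulin windows, at chr8:123411303-123411602, plus strand; chr17:57087551-57087850, minus strand; chr2:25224653-25224952, minus strand; and chr15:99029641-99029940, plus strand.
Tubb3: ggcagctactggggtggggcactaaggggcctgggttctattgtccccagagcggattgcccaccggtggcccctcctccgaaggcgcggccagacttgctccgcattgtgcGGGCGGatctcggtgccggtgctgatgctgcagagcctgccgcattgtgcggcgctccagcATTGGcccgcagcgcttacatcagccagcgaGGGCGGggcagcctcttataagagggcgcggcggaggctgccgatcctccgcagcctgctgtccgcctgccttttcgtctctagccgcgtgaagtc
Tubb4a: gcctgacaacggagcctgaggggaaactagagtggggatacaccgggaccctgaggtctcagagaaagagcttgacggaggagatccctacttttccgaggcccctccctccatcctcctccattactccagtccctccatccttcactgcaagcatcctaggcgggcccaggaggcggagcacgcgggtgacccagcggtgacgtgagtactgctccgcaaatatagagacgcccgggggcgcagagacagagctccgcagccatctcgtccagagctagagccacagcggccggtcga
Tubb4b: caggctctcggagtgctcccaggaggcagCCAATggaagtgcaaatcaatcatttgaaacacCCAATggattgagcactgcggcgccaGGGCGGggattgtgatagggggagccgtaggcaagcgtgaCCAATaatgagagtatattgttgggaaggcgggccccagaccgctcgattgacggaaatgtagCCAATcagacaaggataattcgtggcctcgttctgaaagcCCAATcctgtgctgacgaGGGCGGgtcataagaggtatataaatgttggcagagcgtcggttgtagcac
Tuba1c: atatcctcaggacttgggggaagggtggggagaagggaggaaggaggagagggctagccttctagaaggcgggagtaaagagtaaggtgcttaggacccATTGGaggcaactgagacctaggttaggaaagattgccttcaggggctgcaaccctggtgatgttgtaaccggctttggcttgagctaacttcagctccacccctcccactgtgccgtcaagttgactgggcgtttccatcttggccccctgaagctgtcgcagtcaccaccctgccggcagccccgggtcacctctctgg

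The next 3 windows belong to the starts of Eml2, Kif1a and Kif5c, at chr7:19176171-19176470, plus strand; chr1:93101825-93102124, minus strand; and chr2:49619036-49619335, plus strand.
Eml2: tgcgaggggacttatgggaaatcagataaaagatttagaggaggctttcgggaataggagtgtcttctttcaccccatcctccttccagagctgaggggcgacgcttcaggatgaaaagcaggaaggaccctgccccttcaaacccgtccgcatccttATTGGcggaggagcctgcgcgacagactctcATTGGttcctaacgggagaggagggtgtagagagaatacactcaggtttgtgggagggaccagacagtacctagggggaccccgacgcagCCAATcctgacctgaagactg
Kif1a: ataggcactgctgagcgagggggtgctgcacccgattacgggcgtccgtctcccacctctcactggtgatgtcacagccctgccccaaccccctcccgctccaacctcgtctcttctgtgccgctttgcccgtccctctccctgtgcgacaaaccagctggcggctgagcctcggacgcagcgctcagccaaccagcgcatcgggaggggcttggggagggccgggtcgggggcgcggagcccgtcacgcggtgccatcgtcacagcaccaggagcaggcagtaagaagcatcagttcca
Kif5c: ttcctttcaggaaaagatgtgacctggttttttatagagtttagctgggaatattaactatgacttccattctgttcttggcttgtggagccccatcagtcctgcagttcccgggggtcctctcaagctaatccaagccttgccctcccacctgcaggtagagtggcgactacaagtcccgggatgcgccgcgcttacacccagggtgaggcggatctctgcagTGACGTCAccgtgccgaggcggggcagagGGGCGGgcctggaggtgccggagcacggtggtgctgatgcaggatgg

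The last pair belongs to annotated starts inside the Dctn1 and Dclk1 genes, at chr6:83185696-83185995, plus strand and chr3:55461478-55461777, plus strand. The Dctn1 peak begins inside its window, with 15 of the 300 bases under it, and its centre lies 131 bp downstream of the start.
Dctn1: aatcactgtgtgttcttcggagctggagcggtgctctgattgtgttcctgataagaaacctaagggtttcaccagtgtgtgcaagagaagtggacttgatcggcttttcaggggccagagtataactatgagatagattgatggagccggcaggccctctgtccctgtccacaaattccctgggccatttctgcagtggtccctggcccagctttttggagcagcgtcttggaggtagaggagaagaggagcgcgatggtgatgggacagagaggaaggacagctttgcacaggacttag
Dclk1: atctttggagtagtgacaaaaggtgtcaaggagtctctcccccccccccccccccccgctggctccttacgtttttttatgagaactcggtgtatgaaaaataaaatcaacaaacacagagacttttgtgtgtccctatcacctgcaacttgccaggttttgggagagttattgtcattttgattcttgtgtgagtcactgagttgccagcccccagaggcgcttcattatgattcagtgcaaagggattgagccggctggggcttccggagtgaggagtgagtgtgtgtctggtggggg

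Among these 9 windows the number of motif matches was highest for Tubb4b, with 5 CCAAT boxes and 2 GC boxes. Tubb3 held 2 GC boxes and 1 CCAAT box, Eml2 held 3 CCAAT boxes and Kif5c held 1 cAMP response element beside 1 GC box. The Tubb4a, Kif1a, Dctn1 and Dclk1 windows held none of the 5. A start window was in the table for 70 of the 89 genes (86 windows), and 49 windows lay under a microtubule peak. Of the 86 windows, 50 (58.1%) held a GC box, against 46.2% of the 21263 windows of protein-coding genes, and 41 (47.7%) held a CCAAT box, against 38.2%. A cAMP response element was in 6 (6.98%), against 2.23%, the NRF1 core in 4 (4.65%), against 3.52%, and the repressor element part in 1 (1.16%), against 0.414%. The 49 windows under a peak, a choice not made for the windows of protein-coding genes, held a GC box in 36 (73.5%), a CCAAT box in 22 (44.9%), the cAMP response element in 6 (12.2%), the NRF1 core in 2 (4.08%) and the repressor element part in 0. By tissue call, a GC box was in 6 of the 11 windows under a peak higher in brain and in 30 of the 37 windows (81.1%) under peaks that were not called. Matches are letters in a window and were not tested as binding sites; overlapping matches were each counted.

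Reads in nuclear peaks numbered 319307 to 465489 in brain libraries and 340697 to 3075377 in lung libraries, and mitochondrial DNA took 93.4 to 95.8% of all reads in peaks in brain, against 24.7 to 58.0% in lung. Levels are therefore given in RPM, the reads of a peak for every 1000000 that a library had over its nuclear peaks. The lung libraries of 50 nuclei labelled replicate 2 and replicate 3 stood apart, with a read in 60.9 and 56.1% of nuclear peaks, against 86.2% or more in the other libraries. They had a read in 94 and 90 of the 163 microtubule peaks, whereas the brain libraries had one in 144 to 158. Summed RPM at 8 neuronal marker genes was 245 to 398 in brain libraries and 51.1 to 107 in lung libraries; 9 of the 15 marker peaks were called higher in brain, at least 1 at each gene. Oligodendrocyte markers (13 peaks at 4 genes, with no peak at Mog) summed to 256 to 397 RPM in brain and 129 to 287 in lung, with 4 peaks called higher in brain. The sum of 30 peaks at 6 endothelial genes was 294 to 416 RPM in brain and 999 to 1390 in lung, with 14 peaks called lower in brain. Alveolar epithelial markers (22 peaks at 5 of 6 genes, with no peak at Sftpc) summed to 118 to 135 RPM in brain and 286 to 447 in lung; the 5 calls there were all at Clic5. Astrocyte markers (3 peaks at 2 of 4 genes, with no peak at Aqp4 and Aldh1l1) summed to 18.8 to 53.7 RPM in brain and 9.95 to 31.0 in lung, with no call. Markers of ciliated airway cells (5 peaks at 4 genes) summed to 114 to 156 RPM in brain and 49.9 to 124 in lung, with 1 call, higher in brain. The part of cell-type makeup in the differences at microtubule genes was not tested: more nuclei with an open site and a more open site per nucleus cannot be told apart in pooled nuclei.

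Of the 163 microtubule peaks, 30 (18.4%, against 10.2% of all peaks tested) were called between the tissues: 24 (14.7%) higher in brain than in lung and 6 (3.68%) lower, by edgeR's quasi-likelihood test with Benjamini-Hochberg adjustment over all 37466 tested peaks at 0.05. Over all tested peaks 5.76% were called higher and 4.39% lower, so the share called higher was above the background and the share called lower close to it. The median log2 fold, brain over lung, was 0.43 at microtubule peaks and 0.07 over all peaks tested. Calls fell on 20 genes for higher and 6 for lower, with Stmn1 among both. In all 4 brain libraries the RPM exceeded that of every lung library at 31 peaks (19.0%, against 8.4% of all peaks), and at 7 it was below every lung library (4.29%, against 4.94%). An unadjusted p under 0.05 was reached by 58 of the 163 (35.6%, against 25.1% of all peaks). Without the 2 low-coverage lung libraries, 33 microtubule peaks (20.2%, against 9.95% of all peaks) were called higher and 16 (9.82%, against 12.4%) lower, and all 30 calls were kept. Scaled instead by all reads in peaks, with the mitochondrial ones, 6 microtubule peaks were called higher (3.68%, against 0.673% of all peaks) and 117 lower (71.8%, against 80.3%), and the median log2 fold over all peaks moved by -3.41; the folds of Map1a, Kif5c, Tubb2b, Map2, the intragenic Map4 peak, Klc1 and the peak near the outer Dclk1 start then turned negative, but relative to that median none of the 30 turned.

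**Figure D1:**
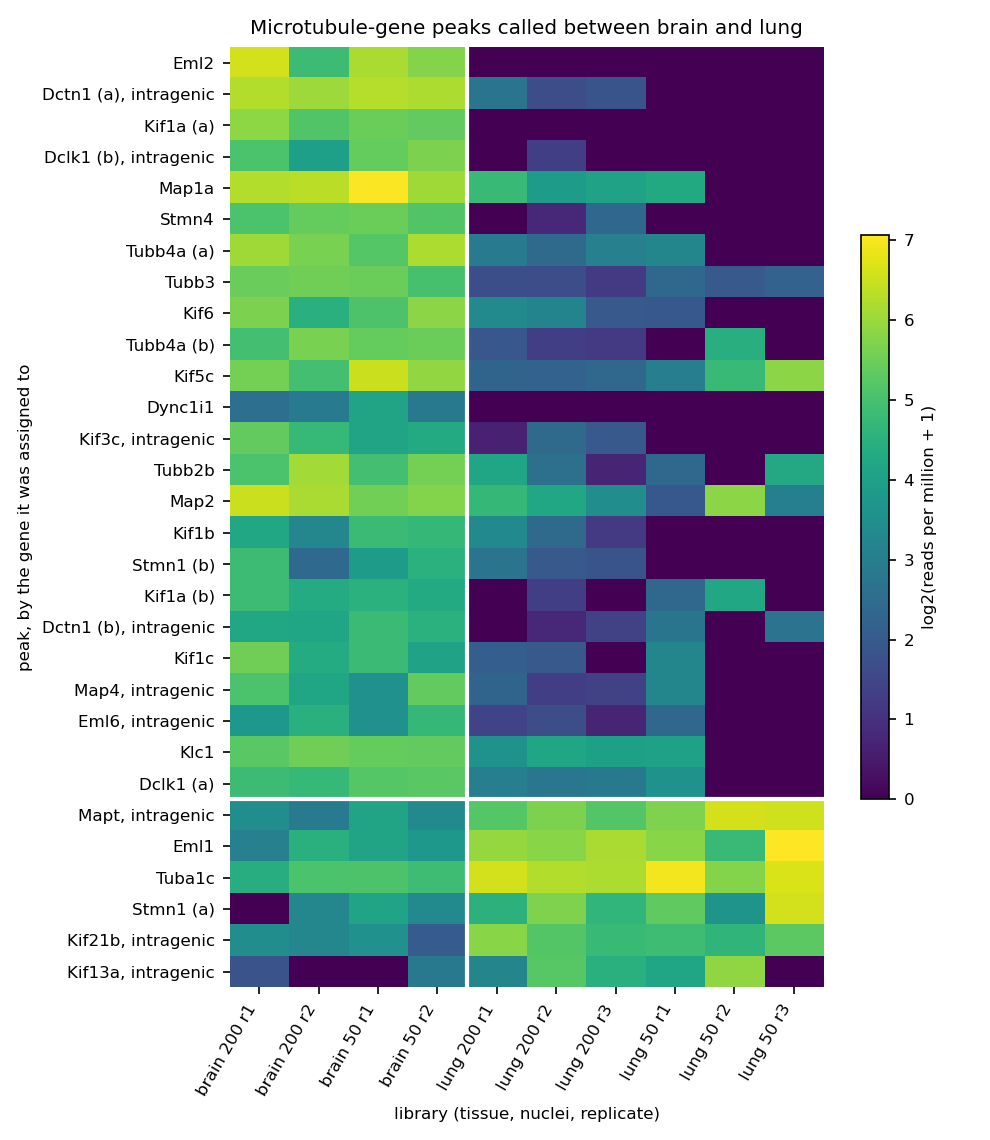
Levels at the 30 called microtubule peaks in each library, as log2(RPM + 1), brain columns left of the white line and lung columns right of it; rows above the horizontal line are the 24 peaks called higher in brain and rows below it the 6 called lower, each ordered by p, and letters in brackets number the called peaks of a gene by position. Eml2, Kif1a (a) and Dync1i1 are at 0 in all 6 lung libraries, and Mapt, Eml1, Tuba1c and Kif21b are below every lung library in all 4 brain libraries.

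By position, of the 92 gene-end peaks 18 (19.6%) were called higher in brain, against 6.19% of all 13788 gene-end peaks, and 3 (3.26%) lower, against 1.63%. Of the 64 intragenic peaks 6 (9.38%) were called higher, against 5.86% of all 13109 intragenic peaks, and 3 (4.69%) lower, against 5.33%. None of the 7 flanking peaks was called by edgeR or DESeq2, and 0 reached an unadjusted edgeR p under 0.05; 3.9% of all flanking peaks were called higher and 7.25% lower. The median log2 fold was 0.54 at gene-end microtubule peaks, against 0.37 at all gene-end peaks, and 0.23 at intragenic ones, against -0.19. Whether gene-end and intragenic microtubule peaks differ in their share of calls was not tested. Summed RPM at gene-end microtubule peaks was 3520, 3620, 3570 and 3640 in the brain libraries, against a lowest, median and highest value in lung of 2460, 2600 and 2850, with no overlap. All gene-end peaks together held 61.0 to 65.4% of nuclear-peak reads in brain and 56.2 to 59.4% in lung, also with no overlap. At intragenic microtubule peaks the sums were 1240, 1220, 1340 and 1330 in brain and ran from 1080 to 1230 in lung, so the tissues overlapped there. All intragenic peaks together held 21.3 to 23.7% of nuclear-peak reads in brain and 23.8 to 25.4% in lung, which is lower in brain. The brain libraries all exceeded the lung libraries at 18 gene-end microtubule peaks (19.6%, against 10.3% of all gene-end peaks) and at 13 intragenic ones (20.3%, against 7.76%), and all lay below them at 2 (2.17%, against 2.35%) and 4 (6.25%, against 6.04%). Gene-end peaks held 70.6 to 72.7% of microtubule reads in brain and 64.3 to 70.0% in lung; over all assigned peaks the shares were 69.0 to 72.6% in brain and 65.7 to 68.3% in lung, a difference in the same direction.

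**Figure D2:**
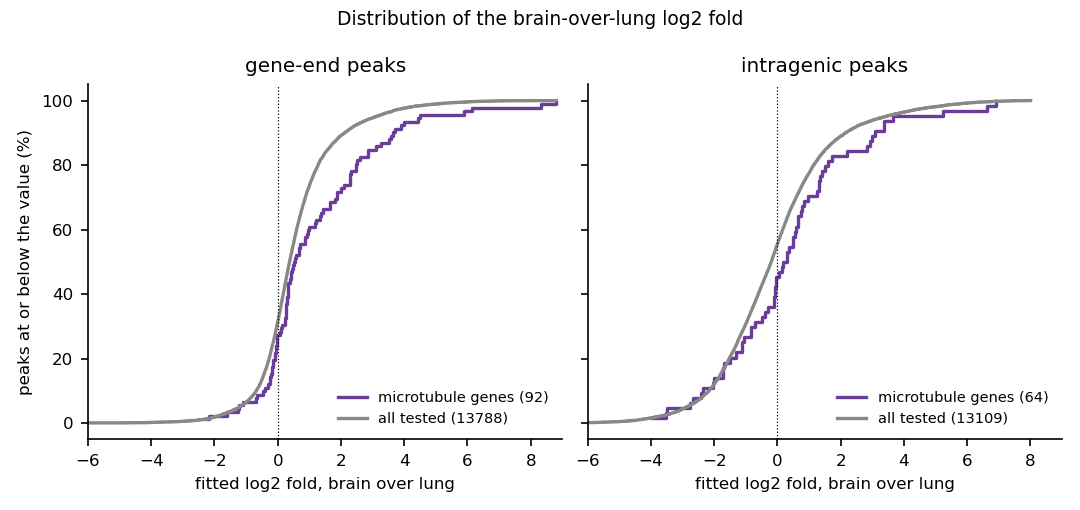
Cumulative distribution of the fitted log2 fold, brain over lung, at gene-end peaks (left) and intragenic peaks (right), for microtubule genes and for all tested peaks of the class. The medians are 0.54 and 0.37 at gene ends and 0.23 and -0.19 inside genes, microtubule genes first; values beyond the axis limits are not drawn.

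The beta-tubulins divided by gene. Tubb3, the neuronal beta-tubulin, had 42.6, 45.1, 43.8 and 31.3 RPM in the brain libraries at its start peak (chr8:123411406-123411557), against a lowest, median and highest value of 1.3, 2.58 and 4.27 RPM in lung. The tissues did not overlap, and the log2 fold was 3.89 ± 0.74 (SE; edgeR adjusted p = 0.000523); Mc1r is also in reach of this peak. Tubb4a, known as an oligodendrocyte and neuronal form, had 2 called peaks. Its peak inside the gene end (chr17:57087119-57087450) had 65.2, 49.4, 35.6 and 72.0 RPM in brain, against 0, 5.52 and 8.53 RPM in lung (lowest, median and highest), with a log2 fold of 3.52 ± 0.66 (edgeR adjusted p = 0.000426). Its start peak (chr17:57087546-57087725) had 30.1, 49.4, 41.0 and 43.8 RPM in brain, against 0, 1.38 and 20.5 RPM in lung, with a log2 fold of 3.66 ± 0.82 (edgeR adjusted p = 0.00254).

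Tubb4b, a broadly expressed beta-tubulin that also builds cilia, had the most RPM of any beta-tubulin peak and showed no such difference. Its start peak (chr2:25224432-25225098) had 293, 251, 197 and 247 RPM in brain, against 187, 276 and 358 RPM in lung (lowest, median and highest). The brain values lay within the lung range, and the log2 fold was -0.09 ± 0.22 (edgeR adjusted p = 0.826); Fam166a and Slc34a3 are also in reach. Among peaks chosen after their values were seen, the gene-end peak of Tubb2b, a beta-tubulin of developing and adult brain, was called higher, with 44.1 ± 16.8 RPM in brain against 7.58 ± 8.11 RPM in lung (mean ± SD, n = 4 and 6; edgeR adjusted p = 0.0194). That call was lost without any of 6 libraries in turn, with adjusted p of up to 0.181. Its neighbour Tubb2a had 66.9 ± 9.13 RPM in brain against 64.2 ± 21.1 RPM in lung at the start peak, and Tubb5 65.5 ± 16.7 RPM in brain against 71.8 ± 22.4 RPM in lung; neither passed the test (edgeR adjusted p = 0.875 and 0.787), and Bphl and Mdc1 are also in reach there. In all, 4 of the 13 beta-tubulin peaks were called, each higher in brain and at 3 of 7 genes (30.8%, against 6.19% of all gene-end peaks, since all 13 are gene-end peaks). Tubulin genes are a family of close copies, and the handling of reads that match several copies is not stated.

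None of the 8 alpha-tubulin peaks was called higher in brain by edgeR or DESeq2, and 0 were higher at an unadjusted edgeR p under 0.05. Tuba1a, the main alpha-tubulin of neurons, had 140, 92.4, 109 and 110 RPM in brain, against 69.7, 91.9 and 117 RPM in lung (lowest, median and highest) at its start peak (chr15:98953361-98953806). The ranges overlapped, and the log2 fold of 0.28 ± 0.27 did not pass the test (edgeR adjusted p = 0.541). Tuba1c, a widely expressed alpha-tubulin, was lower in brain at its start peak (chr15:99029733-99030409). It had 20.1, 32.2, 32.8 and 28.2 RPM in brain, against 52.8, 85.4 and 122 RPM in lung, with no overlap. The log2 fold was -1.61 ± 0.38 (edgeR adjusted p = 0.00393), and without brain 200-nuclei replicate 1 the adjusted p was 0.0517.

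**Figure D3:**
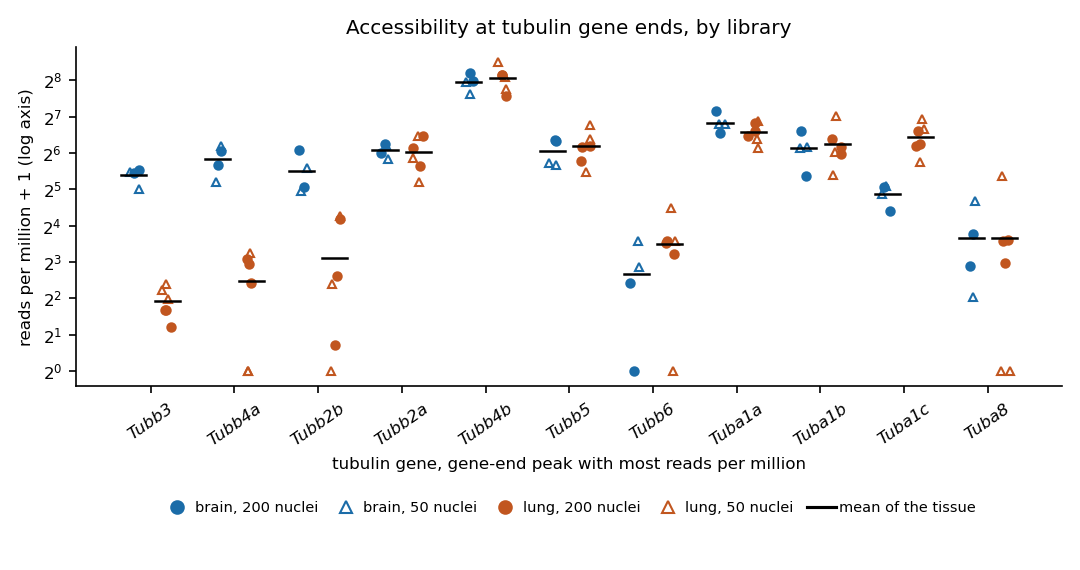
RPM + 1 on a log axis at the gene-end peak with the most RPM of each tubulin gene that has one, brain points left of lung points for each gene; filled circles are libraries of 200 nuclei, open triangles libraries of 50 nuclei, and bars the mean of the tissue. Tubb3, Tubb4a and Tubb2b average 40.7, 55.6 and 44.1 RPM in brain against 2.76, 4.51 and 7.58 RPM in lung, Tuba1c averages 28.3 RPM in brain and 86.5 in lung, and the points of the tissues overlap for the other genes.

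Among the 71 kinesin peaks, at 33 of 38 genes, 7 were called higher in brain (9.86%, against 5.76% of all peaks) and 2 lower (2.82%, against 4.39%). Kif1a, the axonal carrier of synaptic vesicle precursors, had 57.7, 34.4, 43.8 and 40.7 RPM in brain at a peak over its start (chr1:93101762-93101900), against 0 in all 6 lung libraries. The brain libraries had 68 reads and the lung libraries 0, which makes the peak at least 115-fold higher in brain when the lung is set to 3 reads over its 6 libraries together (edgeR adjusted p = 6.73e-06). Kif5c, a neuronal heavy chain of conventional kinesin, had 47.6, 30.1, 90.3 and 59.5 RPM in brain at its start peak (chr2:49619164-49619379), against 3.66, 5.67 and 56.6 RPM in lung (lowest, median and highest). Lung 50-nuclei replicate 3, at 56.6 RPM, lay within the brain range. Lung 50-nuclei replicate 2, at 26.4 RPM, lay just below it, and the other 4 lay at 7.11 RPM or below. The log2 fold was 2.33 ± 0.52 (edgeR adjusted p = 0.00261), and without brain 50-nuclei replicate 1 the adjusted p was 0.0529. Kif6, a kinesin of motile cilia known from the ependyma of the mouse brain, had 50.1, 21.5, 32.8 and 56.4 RPM in brain at its start peak (chr17:49614961-49615251), against 0, 2.88 and 9.42 RPM in lung. The tissues did not overlap, and the log2 fold was 3.72 ± 0.81 (edgeR adjusted p = 0.00193).

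Both kinesin peaks called lower in brain were intragenic. At Kif21b, a motor that also regulates microtubule dynamics in neurons, an intragenic peak (chr1:136135152-136135320) had 10.0, 8.59, 10.9 and 3.13 RPM in brain, against 23.5, 31.8 and 55.4 RPM in lung (lowest, median and highest). The tissues did not overlap and the log2 fold was -2.04 ± 0.65 (edgeR adjusted p = 0.0378). At Kif13a, a motor of recycling endosomes, an intragenic peak (chr13:46752715-46752878) had 3 reads in brain and 163 in lung, a pooled ratio of 0.0931 (95% exact interval 0.0190 to 0.277, counting error only). Its RPM values were 2.51, 0, 0 and 6.26 in brain and 0, 19.3 and 58.7 in lung, so the tissues overlapped (edgeR adjusted p = 0.0476). The other Kif21b peaks, named after their values were seen, went in both directions, and none passed the test. The one over the nearer gene end (chr1:136131157-136131523) had 83.8 ± 16.1 RPM in brain against 35.9 ± 21.8 RPM in lung (mean ± SD, n = 4 and 6; edgeR adjusted p = 0.0742). An intragenic one (chr1:136140122-136140540) had 71.1 ± 14.9 RPM in brain against 36.6 ± 5.44 RPM in lung, with no overlap (edgeR adjusted p = 0.0797). Another intragenic one (chr1:136170220-136170364) had 22.3 ± 6.41 RPM in brain against 7.31 ± 3.74 RPM in lung (edgeR adjusted p = 0.21). The one 875 bp from the other gene end (chr1:136178694-136179059), with Mroh3 also in reach, had less in brain. It had 18.2 ± 9.37 RPM in brain against 40.9 ± 15.5 RPM in lung (edgeR adjusted p = 0.17). The Kif21b call was lost without any of 7 libraries in turn, with adjusted p of up to 0.202, and the Kif13a call without any of 9, with adjusted p of up to 0.21.

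Of 4 further kinesin peaks called higher in brain, named after their values were seen, the intragenic Kif3c peak (chr12:3391047-3391148) held its call without each library in turn. Kif3c, a subunit of a kinesin-2 motor, had 25.3 ± 10.7 RPM in brain against 1.31 ± 1.89 RPM in lung there (mean ± SD, n = 4 and 6; edgeR adjusted p = 0.00371). The others lay over the start of Kif1a, 550 bp from that of Kif1b and 623 bp from the terminus of Kif1c, 3 kinesin-3 motors, with edgeR adjusted p of 0.0207, 0.0198 and 0.0269, and each lost its call without 5 or 6 of the libraries taken singly, with adjusted p of up to 0.179. At the called Kif1b peak the lung libraries of 50 nuclei were all at 0, and at 200 nuclei alone the log2 fold was 1.27 ± 1.32 (edgeR adjusted p = 0.733). At the main start peak of Kif1b (chr4:149307654-149308096), the kinesin peak with the most RPM, the values were 120, 116, 107 and 147 RPM in brain, against 71.2, 102 and 115 RPM in lung. The log2 fold of 0.34 ± 0.27 did not pass the test (edgeR adjusted p = 0.451). A set of 12 kinesins of cell division, drawn up after the values were seen, held 13 peaks at 10 genes, with 0 calls by edgeR (1 higher in brain at an unadjusted p under 0.05, and 1 called higher by DESeq2), a median log2 fold of 0.23 and a lowest adjusted p of 0.123. The other kinesins held all 9 calls in 58 peaks, with a median log2 fold of 0.32, and the difference between these sets was not tested. Of the 7 peaks of kinesin light chains, which couple conventional kinesin to its cargo, 1 was called (14.3%, against 5.76% of all peaks called higher). It lies at an annotated start of Klc1 (chr12:111758763-111759068), with Coa8 also in reach, and had 37.6, 45.1, 41.0 and 40.7 RPM in brain against 0, 13.2 and 16.8 RPM in lung (edgeR adjusted p = 0.0401). The call was lost without any of 7 libraries in turn, with adjusted p of up to 0.17.

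**Figure D4:**
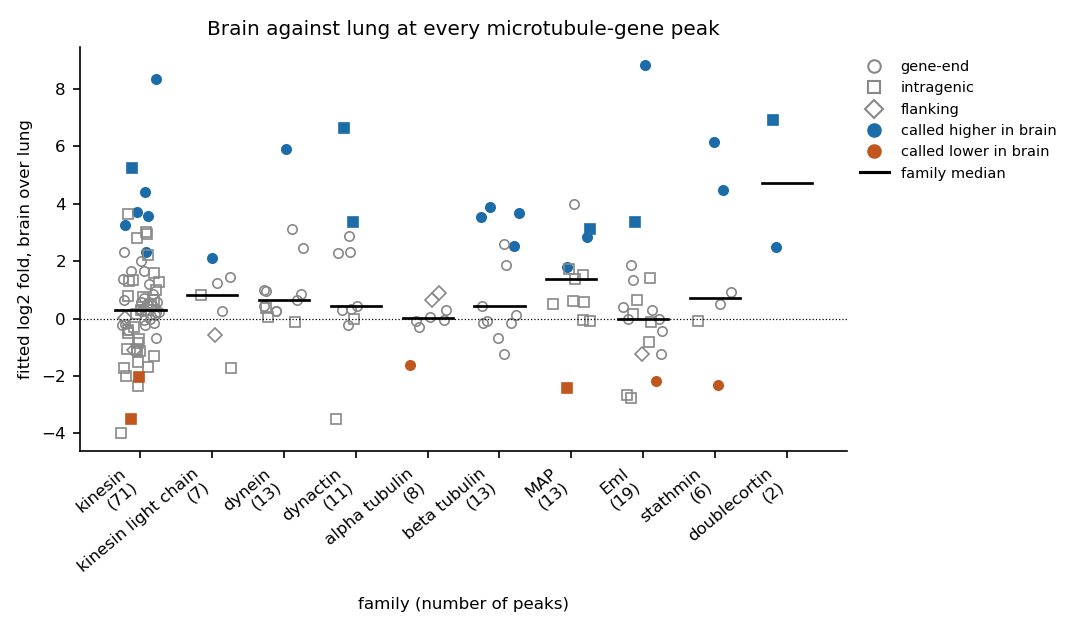
Fitted log2 fold, brain over lung, of all 163 microtubule peaks by family, with the number of peaks in brackets; circles are gene-end, squares intragenic and diamonds flanking peaks, filled blue where called higher in brain and filled orange where called lower, and bars are family medians. The 24 peaks called higher lie at log2 folds from 1.81 to 8.81 and the 6 called lower at -1.61 to -3.50.

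Dynein and dynactin, the minus-end motor and its activator, held 3 calls in 24 peaks, all higher in brain (12.5%, against 5.76% of all peaks). Dync1i1, the intermediate chain enriched in neurons, had 5.01, 6.44, 16.4 and 6.26 RPM in brain at a peak 314 bp from its start (chr6:5725869-5725959), against 0 in all 6 lung libraries. The 13 reads in brain are at least 21.9-fold higher than in lung set to 3 reads over its libraries together (edgeR adjusted p = 0.00339). Dync1i2, the broadly expressed intermediate chain, had 50.1, 96.7, 41.0 and 59.5 RPM in brain against 18.3, 53.5 and 71.1 RPM in lung (lowest, median and highest) at its start peak, and did not pass the test (log2 fold 0.27 ± 0.39, edgeR adjusted p = 0.705). The dynactin peak with the most RPM, at Dctn5 with Palb2 also in reach, averaged 45.9 ± 11.5 RPM in brain against 54.5 ± 14.0 RPM in lung, with a log2 fold of -0.23 ± 0.38 (edgeR adjusted p = 0.744).

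Dctn1 encodes the large dynactin subunit that binds dynein and microtubules, and shorter forms of the protein are known. Its peak just downstream of the internal start printed above (chr6:83185981-83186173) had 75.2, 64.4, 76.6 and 72.0 RPM in brain, against 5.54, 2.2 and 2.60 RPM in lung at 200 nuclei and 0 in all 3 lung libraries of 50 nuclei. The means were 72.1 ± 5.44 RPM in brain against 1.72 ± 2.21 RPM in lung (SD, n = 4 and 6), a ratio of 41.8, and the edgeR adjusted p was 4.34e-07. At 200 nuclei alone, where no group was at 0, the log2 fold was 4.2 ± 0.77 (edgeR adjusted p = 0.00185). The peak 195 bp from the outer gene start (chr6:83165652-83165776), which overlaps no annotated start window of Dctn1 and has 1700003E16Rik also in reach, had 31.2 ± 19.8 RPM in brain against 27.5 ± 14.4 RPM in lung (log2 fold 0.30 ± 0.55, edgeR adjusted p = 0.775). Of the reads in these peaks together, the internal one held 62.5, 75.0, 90.3 and 59.0% in the brain libraries. In lung it held 17.9, 13.0 and 17.0% at 200 nuclei and 0% in all 3 libraries of 50 nuclei, so the shares did not overlap. A peak near the gene terminus (chr6:83197538-83197638), named after its values were seen, was also called higher, at 21.0 ± 4.75 RPM in brain against 2.25 ± 2.65 RPM in lung (edgeR adjusted p = 0.0227), and lost its call without any of 6 libraries in turn, with adjusted p of up to 0.1.

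Dclk1, a kinase with doublecortin domains in its long forms and without them in its short forms, also had a peak at an annotated internal start. There (chr3:55461679-55461849) it had 32.6, 15, 41.0 and 50.1 RPM in brain, against 1.46 RPM in lung 200-nuclei replicate 2 and 0 in the other 5 lung libraries. The 51 reads in brain and 2 in lung give a pooled ratio of 129 (95% exact interval 33.9 to 1090, counting error only; edgeR adjusted p = 0.000206). A peak 270 bp from the outer start (chr3:55242489-55242658) had 27.6, 25.8, 35.6 and 37.6 RPM in brain, against 0, 6.02 and 11.4 RPM in lung (lowest, median and highest). It was called higher in brain too, with a log2 fold of 2.49 ± 0.81 (edgeR adjusted p = 0.0420), and lost the call without any of 7 libraries in turn, with adjusted p of up to 0.165. The internal start held 54.2, 36.8, 53.6 and 57.1% of the reads of both peaks in brain, against 0, 20.0 and 0% in lung at 200 nuclei and 0% in lung 50-nuclei replicate 1. The remaining lung libraries had no read in either peak. No test was made on these shares for Dctn1 or Dclk1, since the genes were chosen for the difference.

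**Figure D5:**
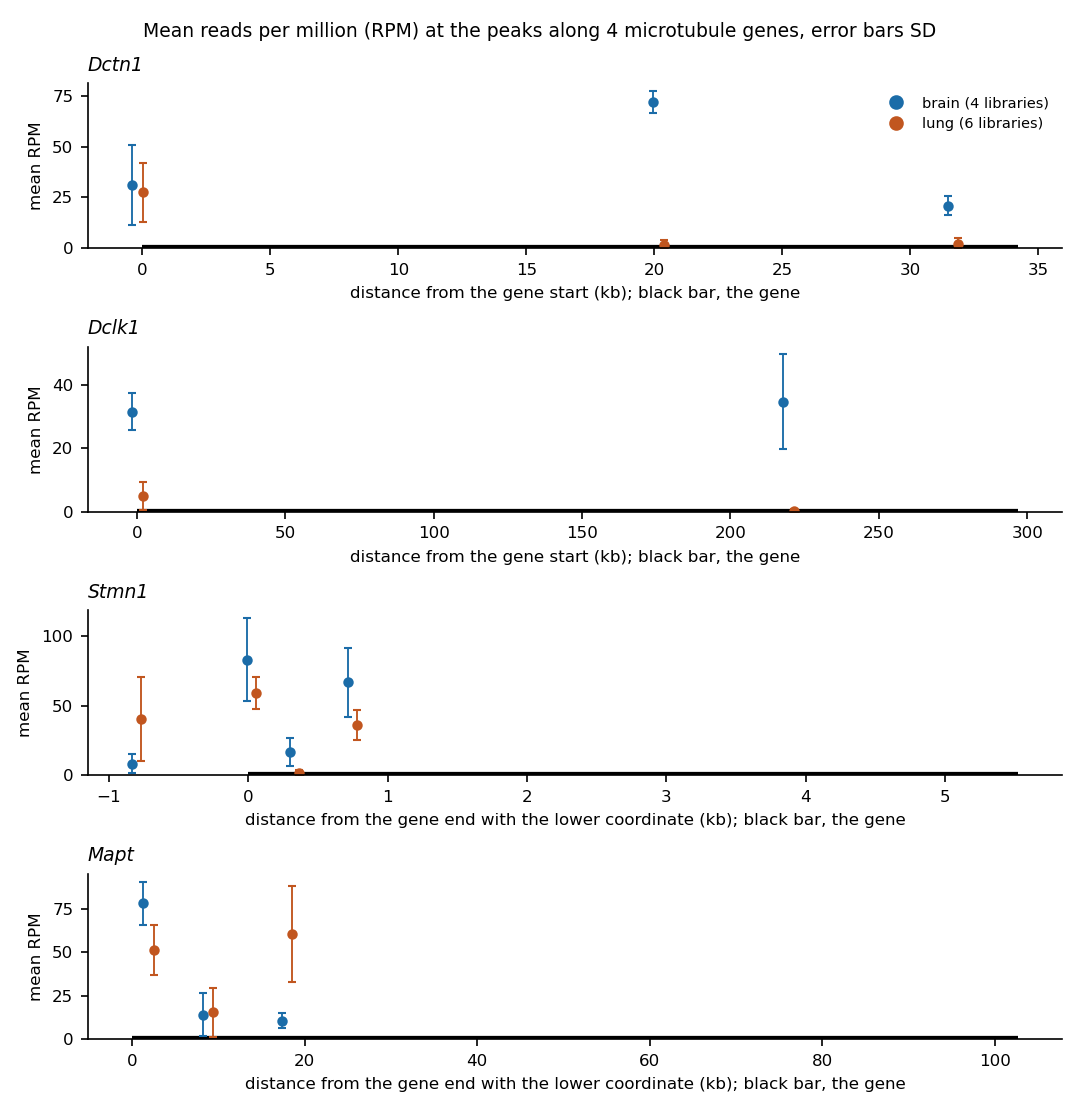
Mean RPM ± SD at the peaks assigned to Dctn1, Dclk1, Stmn1 and Mapt, brain (blue, 4 libraries, drawn slightly to the left) and lung (orange, 6 libraries), by distance in kb from the gene start, or from the gene end with the lower coordinate where the strand is not in the table; the lower error bars stop at 0. The internal Dctn1 peak averages 72.1 RPM in brain and 1.72 in lung, and at Stmn1 and Mapt a called peak with more RPM in lung lies within 20 kb of a peak with more in brain.

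Structural MAPs held 3 peaks called higher in brain (23.1%, against 5.76% of all peaks) and 1 lower (7.69%, against 4.39%), of 13. Map1a, a light-chain-bearing MAP of mature neurons, had 75.2, 79.5, 129 and 65.8 RPM in brain at a gene-end peak (chr2:121289345-121289801), against 0, 14.9 and 26.0 RPM in lung (lowest, median and highest). The tissues did not overlap, and the log2 fold was 2.85 ± 0.51 (edgeR adjusted p = 0.000277); Trp53bp1 is also in reach. Among peaks named after their values were seen, the start of Map2, the MAP of dendrites, had 65.2 ± 19.6 RPM in brain against 19.7 ± 19.3 RPM in lung (edgeR adjusted p = 0.0195). An intragenic peak of Map4 (chr9:110019254-110019446) had 25.4 ± 13.7 RPM in brain against 2.58 ± 3.24 RPM in lung (edgeR adjusted p = 0.0304). The Map2 call was lost without any of 5 libraries in turn, with adjusted p of up to 0.133, and the Map4 call without any of 7, with adjusted p of up to 0.269. At the main peak of Map4, the broadly expressed MAP, at an annotated start (chr9:109931296-109932004), the values were 208, 217, 183 and 219 RPM in brain against 182, 221 and 264 RPM in lung. Its log2 fold was -0.07 ± 0.22 (edgeR adjusted p = 0.877).

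Mapt encodes tau, the MAP of axons, and its called peak ran the other way. An intragenic peak (chr11:104247218-104247475), 17937 bp from the nearer gene end, had 10.0, 6.44, 16.4 and 9.40 RPM in brain, against 34.8, 50.5 and 96.9 RPM in lung (lowest, median and highest). The tissues did not overlap, and the log2 fold was -2.41 ± 0.51 (edgeR adjusted p = 0.00148), a call kept without each library in turn. A peak closer to the gene end, named after its values were seen, had 78.1 ± 12.5 RPM in brain against 51.3 ± 14.3 RPM in lung and was not called (log2 fold 0.60 ± 0.34, edgeR adjusted p = 0.269).

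Stathmins, which bind free tubulin, held 2 peaks called higher in brain (33.3%, against 5.76% of all peaks) and 1 lower (16.7%, against 4.39%), of 6. Stmn4, a neural stathmin, had 32.6, 40.8, 43.8 and 34.4 RPM in brain at a gene-end peak (chr14:66344210-66344333), against 0, 0 and 4.23 RPM in lung (lowest, median and highest). The ratio of the means was 45.9 (edgeR adjusted p = 0.000327). Stmn1 was the only gene of the 75 with calls in both directions in the main test. At 332 bp from its gene end (chr4:134468607-134468697) it had 27.6, 4.30, 13.7 and 21.9 RPM in brain, against 0, 1.3 and 5.54 RPM in lung (edgeR adjusted p = 0.0201). At 800 bp from the same end (chr4:134467442-134467598) it had 0, 8.59, 16.4 and 9.40 RPM in brain, against 11.7, 31.9 and 94.9 RPM in lung (edgeR adjusted p = 0.0260). At both, the tissues overlapped. The peak over the gene end itself (chr4:134468173-134468513), the stathmin peak with the most RPM, had 83.3 ± 29.9 RPM in brain against 59.1 ± 11.5 RPM in lung and was not called (log2 fold 0.49 ± 0.32, edgeR adjusted p = 0.353). Leaving out any of 5 libraries ended the higher call, with adjusted p of up to 0.189, and leaving out any of 4 ended the lower one, with adjusted p of up to 0.174. At the Stmn1 peak called higher the lung libraries of 50 nuclei were all at 0. At 200 nuclei alone its log2 fold of 1.96 ± 1.34 did not pass the test. Both Stmn1 calls were lost with a replicate block in the model, and the higher one also with an additive model.

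Eml proteins associate with microtubules and carry a tandem propeller domain. The start peak of Eml2 (chr7:19176266-19176396) had the lowest p of all microtubule peaks, with 95.3, 27.9, 71.1 and 53.2 RPM in brain and 0 in all 6 lung libraries. Its 94 reads in brain against 0 in lung are at least 159-fold higher, with the lung set to 3 reads over its 6 libraries together (edgeR adjusted p = 2.57e-07). Eml1 was lower in brain at a peak 308 bp from its start (chr12:108370517-108370872), with 7.52, 21.5, 16.4 and 12.5 RPM in brain against 26.4, 58.2 and 133 RPM in lung. The tissues did not overlap, and the log2 fold was -2.17 ± 0.49 (edgeR adjusted p = 0.00287). At the start of Eml6 (chr11:30025843-30026311), the Eml peak with the most RPM, the values were 92.8, 125, 145 and 163 RPM in brain against 73.0, 99.8 and 117 RPM in lung, with a log2 fold of 0.40 ± 0.26 (edgeR adjusted p = 0.343). An intragenic Eml6 peak, named after its values were seen, was called higher, at 17.5 ± 6.84 RPM in brain against 1.46 ± 1.64 RPM in lung (edgeR adjusted p = 0.0322), and lost the call without any of 7 libraries in turn, with adjusted p of up to 0.174.

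The tissue difference was also tested at each bulk size. At 200 nuclei 9 microtubule peaks were called, all higher in brain, where 2.24% of all peaks were called (1.0% higher and 1.24% lower). At 50 nuclei 8 were called, also all higher in brain, where 1.41% of all peaks were called (0.918% higher and 0.488% lower). At an unadjusted p under 0.05 (13.7% of all peaks at 200 nuclei and 17.1% at 50 nuclei), 23 were higher and 11 lower in brain at 200 nuclei, and 34 higher and 3 lower at 50 nuclei. The 5 peaks called at both sizes were those at or close to the starts of Eml2 and Kif1a and the internal starts of Dctn1 and Dclk1, and the Tubb4a peak inside the gene end. All 30 peaks called on the average had the same sign at both sizes, and 110 of the 163 did (67.5%), against 70.5% of all peaks. These counts moved with single libraries. Without lung 50-nuclei replicate 3 they were 27 at 200 nuclei and 13 at 50 nuclei, and without brain 200-nuclei replicate 1 they fell. Calls over all peaks moved too. On the average over sizes, 8.84% of all peaks were called higher and 8.65% lower without lung 50-nuclei replicate 3, against 5.76% and 4.39% with all libraries. The shares of all peaks at each size without these libraries are not given here.

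No microtubule peak was called between 200 and 50 nuclei, averaged over tissues, or for a dependence of the tissue difference on size, by edgeR or by DESeq2 (0.0% of all peaks in edgeR for each). An unadjusted edgeR p under 0.05 was reached by 5 of the 163 for size (3.67% of all peaks) and by 8 for the dependence (4.15% of all peaks). Within brain 0 of the 163 reached it for size (1.14% of all peaks), and within lung 15 did (8.2% of all peaks). The lowest p for size were at Kif5c and Dctn1. Kif5c averaged 38.9 RPM at 200 nuclei and 74.9 RPM at 50 nuclei in brain, and 3.92 RPM at 200 nuclei and 30.0 RPM at 50 nuclei in lung (log2 fold, 200 over 50 nuclei, -1.77 ± 0.53, edgeR unadjusted p = 0.00198, adjusted p = 1.0). The internal Dctn1 peak averaged 69.8 RPM at 200 nuclei and 74.3 RPM at 50 nuclei in brain, and 3.45 RPM at 200 nuclei and 0 at 50 nuclei in lung (edgeR unadjusted p = 0.0165, adjusted p = 1.0). The lowest p for the dependence were at an intragenic Kif13a peak (chr13:46812974-46813086), with 4.66 RPM at 200 nuclei and 14.7 RPM at 50 nuclei in brain, and 8.16 RPM at 200 nuclei and 0 at 50 nuclei in lung (edgeR unadjusted p = 0.00681, adjusted p = 1.0), and at an intragenic Mapt peak (chr11:104238033-104238320; edgeR unadjusted p = 0.0123, adjusted p = 1.0).

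A list of 120 further microtubule regulators, such as plus-end trackers, severing enzymes, tubulin-modifying enzymes and cargo adaptors, had 308 peaks at 102 genes. Of these, 28 (9.09%) were called higher in brain, at 25 genes, and 12 (3.90%) lower, at 11 genes, beside 5.76% and 4.39% of all peaks; the median log2 fold was 0.21, against 0.07 over all peaks. Intragenic peaks called higher included those of Map6d1, a relative of the microtubule-stabilizing Map6, with 50.0 ± 23.5 RPM in brain against 0.0542 ± 0.133 RPM in lung, and of Sirt2, a tubulin deacetylase, with 30.3 ± 7.99 RPM in brain against 0.293 ± 0.477 RPM in lung (mean ± SD, n = 4 and 6; edgeR adjusted p = 3.2e-06 and 0.00035). An intragenic peak of Tppp, a tubulin polymerization factor of oligodendrocytes, had 47.3 ± 15.4 RPM in brain against 0.309 ± 0.534 RPM in lung. Peaks called lower included an intragenic one of Bicd2, a dynein adaptor, with 46.6 ± 17.1 RPM in brain against 115 ± 31.0 RPM in lung (edgeR adjusted p = 0.00411), and one of Mark4, a kinase of MAPs, with 5.98 ± 5.26 RPM in brain against 53.1 ± 19.1 RPM in lung (edgeR adjusted p = 0.000356). These examples were chosen after their values were seen.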

How the data were processed

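Raw counts, as deposited by the authors and not normalized by them, were used for 37513 peaks in 10 libraries. The genome was mm10, per the submitters' processing notes, which name Bowtie2 2.4.5, MACS2 2.2.7.1, Picard, SAMtools 1.14, Trimmomatic 0.36 and deepTools 3.1.3 without their roles. The merging of peaks, the unit counted (read or fragment), duplicate removal, the handling of multiply matching reads and a Tn5 shift are not stated there. Duplicates left in the counts would raise the spread between libraries of few nuclei. Peak coordinates are printed as the authors' table gives them.

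Peaks were placed on RefSeq GRCm38.p6 gene models. Strand and annotated starts came from a table of start windows that holds 70 of the 89 genes, so exons, introns and UTRs were not used here. Tests used edgeR 4.0.16 in R 4.3.3 (quasi-likelihood F test, TMM normalization) on 37466 peaks with at least 10 reads over the 10 libraries. Each of the 4 groups had its own mean in the model, and tissues were compared on the average over sizes. At a group with 0 reads throughout, the fitted log2 fold depends on a small prior count, and a bound at 3 reads over the group is given where a whole tissue is at 0. Intervals cover counting error only. Bounds take the brain reads as counted and leave out their counting error. In simulated counts on 37409 peaks, 97 of 100 peaks with a log2 fold of 4 and 14 of 100 with a log2 fold of 2 between tissues were recovered, with 6 false calls. The changed peaks were drawn only from those above a minimum expected read count, and all peaks were given the same dispersion. Recovery at peaks of fewer reads was not measured. DESeq2 1.42.0, other scalings and filters, another model, a replicate block and leaving out each library were the alternatives.

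The peaks named are the 12 of lowest p called in each direction, the peak with the most RPM in each family, the 2 of lowest p for size and for its interaction with tissue, and genes called in both directions; others are marked as chosen after their values were seen. The genes, the lists and the tests were chosen with earlier results of these data known.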

Additional observations from a re-analysis of the deposited data

Results flagged for a closer look

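In 4 of 62 groups of libraries examined (31 named peaks in each tissue), 1 library stood apart from the rest by Dixon's criterion, and chance gives about 1 in 20 groups. At the internal Dclk1 start, lung 200-nuclei replicate 2 had 1.46 RPM, where the other 5 lung libraries had 0. At Stmn4, lung 200-nuclei replicate 3 had 4.23 RPM, where the others had 0 to 0.732. At the Tubb4a start peak, lung 50-nuclei replicate 2 had 20.5 RPM, where the others had 0 to 2.77. At the Dync1i1 peak, brain 50-nuclei replicate 1 had 16.4 RPM, where the others had 5.01 to 6.44; without that library the peak fell below 10 reads and was not tested.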

How the results depend on the processing

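Of the 30 called peaks, 14 (12 higher and 2 lower in brain) kept the call without each library in turn, apart from Dync1i1, which was not tested without brain 50-nuclei replicate 1, and 16 lost it at least once. Leaving out each library gave 11 to 41 peaks higher in brain and 2 to 11 lower, against 24 and 6; at gene ends 8 to 29 and 1 to 5, against 18 and 3; inside genes 3 to 12 and 1 to 6, against 6 and 3; and 0 to 27 calls at 200 nuclei and 1 to 21 at 50 nuclei, against 9 and 8. Among the brain libraries, the count called higher was 11 without replicate 1 of 50 nuclei, 13 without replicate 2 of 50 nuclei, 13 without replicate 1 of 200 nuclei and 15 without replicate 2 of 200 nuclei. It was 16 when replicate 2 of lung at 200 nuclei was left out, 14 when replicate 3 was, and 41 when replicate 1 of lung at 50 nuclei was; in each case the share of microtubule peaks stayed above that of all peaks, from 6.75% against 2.62% to 25.2% against 14.0%. The cause was not tested. Calls over all peaks moved with single libraries too. Their shares by position and at each size are not given, so those ranges are not read as particular to microtubule peaks.

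Without both low-coverage lung libraries the lower calls numbered 16 (9.82%, against 12.4% of all peaks), 5 at gene ends and 10 intragenic. There were then 44 calls at 200 nuclei and 16 at 50 nuclei. With edgeR's filterByExpr, which tested 19 of the 30, there were 11 higher calls, 10 at gene ends and 1 intragenic. That is 6.75% of microtubule peaks, against 2.43% of all peaks tested. The same filter gave 1 intragenic lower call and 4 calls at 200 nuclei. DESeq2 gave 10 intragenic higher calls and 17 calls at 50 nuclei, where it called 1836 of all peaks and edgeR 527. With the replicate block there were 13 higher calls (7.98%, against 2.59% of all peaks), 10 at gene ends and 3 intragenic, and 5 calls at 200 nuclei. The block kept 17 of the 30, and neither Stmn1 call was among them. For these settings, and for the scaling by library totals below, most shares of all peaks at each size and by position are not given. Those counts are therefore not read as results about microtubule genes. Deviations of same-numbered libraries had correlations of -0.03 to 0.02 (13 pairs). With few reads at most peaks such correlations could miss a shared source, so whether the numbers pair libraries is not known.

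Scaling by library totals, mitochondrial reads included, shifted the median over all tested peaks by -3.41 (log2). It gave 6 higher calls and 117 lower (3.68 and 71.8%, against 0.673 and 80.3% of all peaks; 4 and 62 at gene ends, 2 and 48 intragenic), with 109 calls at 200 nuclei and 81 at 50 nuclei. The log2 fold there was -0.41 at Map1a, -1.14 at Kif5c, -0.94 at Tubb2b, -1.77 at Map2, -0.20 at the intragenic Map4 peak, -1.23 at Klc1 and -0.80 near the outer Dclk1 start; relative to the shifted median none of the 30 turned. Among peaks not called, it was -3.07 at Eml6, -3.05 at Stmn1, -3.14 at Kif1b, -3.19 at Tuba1a and -3.21 at Dync1i2. Other uncalled log2 folds near 0 changed sign: Dync1i2 was -0.11 without both low-coverage libraries and -0.03 to 0.71 without 1 library; Tubb4b was -0.19 to 0.04 without 1 library; Map4 was 0.02 with RLE factors and with DESeq2, and -0.14 to 0.11 without 1 library. The intragenic Mapt peak (main log2 fold -0.04) was 0.05 with RLE factors and DESeq2, 0.01 with filterByExpr, 0.14 with an additive model, 0.43 with the block, and -2.78 to 0.43 without 1 library.

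The other alternatives (RLE factors, nuclear totals, TMM over nuclear peaks, no low-count filter, an additive model, gene ends at 500 or 2000 bp, a reach of 2000 bp, and, added after the data were seen, leaving out peaks with another gene in reach) kept every count within 1.5 times its main value. The additive model still lost 2 of the 30 calls, among them the higher one of Stmn1. In simulation at these depths and library numbers 14 of 100 peaks with a log2 fold of 2 were recovered, so an uncalled peak may still differ. The simulated peaks lay above a minimum expected read count, and recovery at thinner peaks was not measured.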
